A study of Homo sapiens with 6 samples.

Results

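In the pooled peak list of a poly(A) 3′-sequencing experiment on IMR-32 cells, 2271 of 200023 peaks lay in intergenic sequence just upstream of protein-coding genes. A peak was a member when its summit lay outside every annotated gene body and transcript-end window (200 bp before to 600 bp after an annotated end), within 3 kb upstream of the start of a protein-coding gene, and not within 10 kb past the 3′ end of another gene. No measured value entered this rule. Members made up 11.2% of the 20295 intergenic peaks on the 24 chromosomes. IMR-32 is a human neuroblastoma cell line with amplified MYCN. There were 6 libraries from this unmodified line: 2 of cells given the solvent DMSO, for a time the labels do not give per sample, 2 of cells given 400 nM THZ531 for 2 h and 2 of cells given 400 nM THZ531 for 6 h. The compound THZ531 binds covalently to and inhibits CDK12 and CDK13, kinases that phosphorylate RNA polymerase II during elongation. The study called 1 list of peaks on merged reads, which carries neither strand nor any value for a library. Its methods do not name the samples merged. The study also made such libraries from Kelly neuroblastoma cells and from CDK12 and CDK13 knockdowns, so reads from these may have entered the list. The labels also name strand-specific coverage tracks, which were not analysed here. DMSO and THZ531 were therefore not compared, no value below has a replicate error, the depth of each library is unknown, and the intervals cover counting error only.

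Many mammalian promoters fire in both directions. RNA polymerase II that leaves a promoter in the direction away from the gene makes an upstream antisense RNA, also called a promoter upstream transcript. These RNAs are usually cut at an early polyadenylation signal and degraded by the nuclear exosome, whereas U1 snRNP bound to 5′ splice sites protects the coding direction from early cleavage. A polyadenylation signal (PAS) is a hexamer, most often AATAAA in DNA letters, that CPSF reads shortly before the cleavage site. Sequencing in this kit begins where the poly(A) tail joins the RNA. The cleavage site is thus expected at whichever boundary of a peak faces the 3′ end of the RNA, here called the 3′ edge. For a gene read to the right, an upstream antisense RNA would end at the left edge of a member. Each member was read on both strands. "Antisense" below means the strand opposite to the coding gene, and "sense" means the gene's own strand.

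Sequences at the 3′ edge show what these features look like. The first set holds 4 of the 6 tallest members that had AATAAA starting 10 to 40 bases before the antisense edge and not before the sense edge. Each sequence covers the last 60 bases of the peak on that strand and the 40 bases after it, from the reference genome GRCh38. Capitals mark AATAAA in that window, and copies elsewhere are in lower case.
DDX1 (chr2:15590367-15590466, minus strand): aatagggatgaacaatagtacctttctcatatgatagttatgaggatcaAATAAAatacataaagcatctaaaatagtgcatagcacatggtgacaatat
MTF2 (chr1:93077652-93077751, minus strand): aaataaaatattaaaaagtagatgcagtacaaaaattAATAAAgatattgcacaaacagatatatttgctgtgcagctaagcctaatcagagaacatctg
XPO1 (chr2:61540414-61540513, plus strand): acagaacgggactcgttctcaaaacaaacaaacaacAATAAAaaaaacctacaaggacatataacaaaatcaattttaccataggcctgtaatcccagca
OSBPL3 (chr7:24982498-24982597, plus strand): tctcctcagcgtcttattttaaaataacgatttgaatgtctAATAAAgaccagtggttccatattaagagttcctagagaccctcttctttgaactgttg
The signal stood 11 bases before the edge at DDX1, 19 at OSBPL3, 23 at MTF2 and 24 at XPO1. None of these sequences holds CTCCNTCTC (N is any base), letters near the end of Alu repeats, which 51 of the 441 members of this kind (11.6%) had. Only exact letters were searched, so altered Alu ends were not counted and may be present in these sequences.

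The second set holds 3 of the 4 tallest members with AATAAA in that window on the sense strand only, again with AATAAA in the window in capitals.
ZNF608 (chr5:124748964-124749063, minus strand): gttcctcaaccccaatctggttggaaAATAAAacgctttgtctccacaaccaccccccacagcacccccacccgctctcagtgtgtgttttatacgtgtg
BICRAL (chr6:42781659-42781758, plus strand): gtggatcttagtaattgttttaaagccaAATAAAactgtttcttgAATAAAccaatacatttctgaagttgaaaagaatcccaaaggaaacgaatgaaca
RTL8B (chrX:135025255-135025354, minus strand): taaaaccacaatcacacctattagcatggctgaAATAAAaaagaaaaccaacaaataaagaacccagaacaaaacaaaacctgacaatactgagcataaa
Members of this kind were fewer. BICRAL had copies starting 32 and 15 bases before the edge, and its member lies within the gene as RefSeq draws it. RTL8B had a copy starting 7 bases before the edge beside that in the window.

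The last sequence shows a genomic A stretch, where the library primer could have bound A-rich RNA in place of a poly(A) tail. EFNA5 is the tallest of the 20 members with an A stretch after the sense edge, while 121 members had one after the antisense edge and are described below. Capitals mark the 25 bases richest in A.
EFNA5 (chr5:107672491-107672590, minus strand): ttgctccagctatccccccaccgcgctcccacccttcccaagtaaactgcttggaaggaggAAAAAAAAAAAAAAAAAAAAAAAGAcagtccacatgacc
EFNA5 had 24 A among the marked bases. It also had AGTAAA before the edge, 1 of the 12 hexamers that the study lists as polyadenylation signals, whereas 17 of the 20 had none on that strand.

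The first question was where upstream of genes the peaks lay. Density was highest between 1001 and 1500 bp upstream of the start, where 555 members gave 180.2 peaks per Mb of bases open to the rule (95% Poisson interval 165.5 to 195.8). It was lower next to the start, with 87.0 per Mb (77.4 to 97.4) in the nearest 500 bp. Between 501 and 1000 bp the density was 154.9 per Mb (141.5 to 169.2), and between 1501 and 2000 bp it was 149.8 per Mb (136.3 to 164.2). It then fell to 98.2 per Mb (87.2 to 110.2) between 2001 and 2500 bp and to 65.3 per Mb (56.4 to 75.3) between 2501 and 3000 bp. The decline went on past the limit of the rule, to 42.1 per Mb (36.9 to 47.8) at 3001 to 4000 bp and 20.1 per Mb (16.5 to 24.4) at 5001 to 6000 bp. From there to 20 kb the bins held between 13.97 and 25.2 peaks per Mb. The limit of 3 kb therefore cut a slope: 37 members lay in its last 100 bp, with a median of 10 reads, and 28 peaks lay in the 100 bp beyond, with a median of 9.

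**Figure D1:**
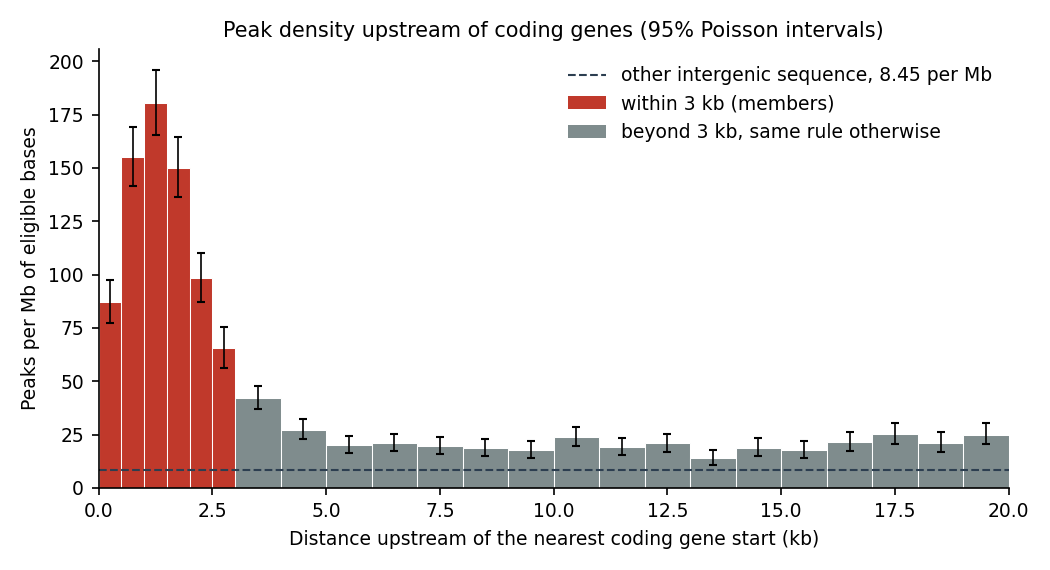
Peaks per Mb of eligible bases (vertical axis) against distance upstream of the nearest coding gene start in kb (horizontal axis), with members in red, farther bins in grey, 95% Poisson intervals as bars and other intergenic sequence as a dashed line. Density reaches 180.2 per Mb between 1001 and 1500 bp and lies between 13.97 and 25.2 per Mb in each bin beyond 6 kb.

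Over all 18.5 Mb open to the rule, members had a density of 122.7 per Mb (117.7 to 127.9). Intergenic sequence within 10 kb past a 3′ end had 42.5 peaks per Mb (41.6 to 43.4), and the remaining intergenic sequence had 8.45 per Mb (8.28 to 8.63). The median distance of a member from its gene start was 1309 bp. Members lay on all 24 chromosomes, with 248 on chromosome 1, 215 on chromosome 2 and 2 on chromosome Y. The rule left out most peaks near promoters: of 11159 peaks within 3 kb upstream of a coding start, 7171 lay in another gene body or transcript-end window and 1717 lay past the 3′ end of a gene. A second coding start was within reach of 82 members (3.61%), and each of these was given to the nearest start.

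Height was measured as reads at the summit, the number of extended reads of the pooled libraries that overlap it. MACS2 by default counts reads of equal position and strand once, so heights are compressed and do not give the abundance of the RNA. Even the tallest of the 28755 transcript-end peaks had 100 reads. Members had a median of 13 reads (lower quartile 9, upper quartile 18) and a range from 3 to 71. Their median local background was 1.21 reads. Their median fold enrichment in the authors' list was 5.81, with a range from 2.86 to 19.5. Peaks at transcript ends had a median of 16 reads, intronic peaks within 2 kb of a coding start had 15, peaks past a 3′ end had 11 and other intergenic peaks had 7. The median was 14 reads in the nearest 500 bp and 11 reads between 2501 and 3000 bp. Of the members, 1643 (72.3%) met the study's cutoff of −log10 q of at least 5, and 106 (4.67%) had −log10 q of at least 20.

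**Figure D2:**
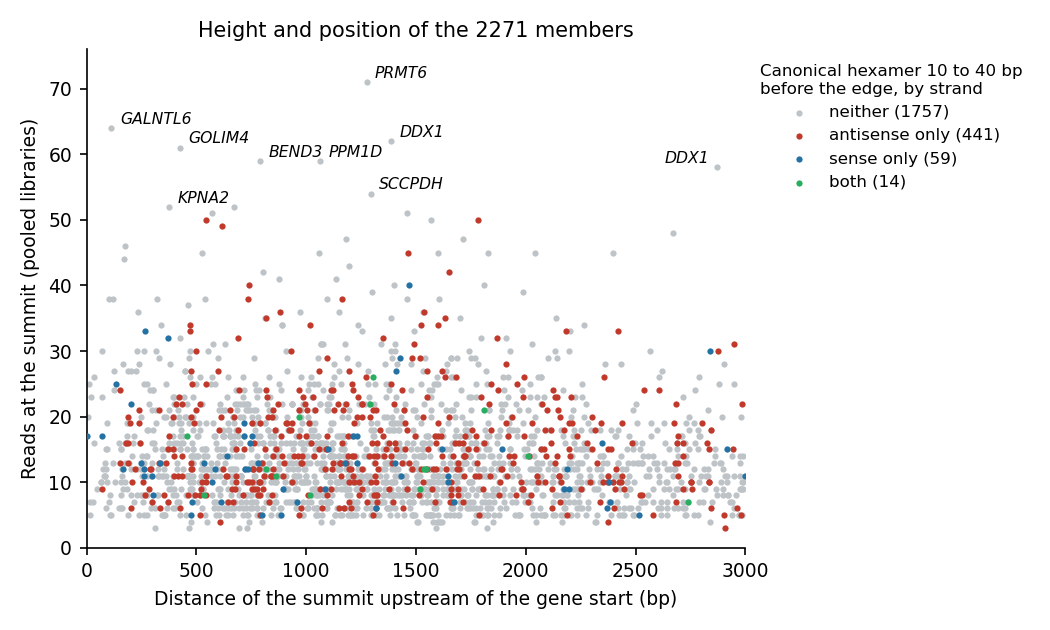
Each of the 2271 members by distance of its summit upstream of the gene start in bp (horizontal axis) and reads at the summit of the pooled libraries (vertical axis), coloured by the strand with the canonical hexamer 10 to 40 bp before the edge; the 9 tallest are named. Members with the hexamer on the antisense strand only (441) outnumber those with it on the sense strand only (59) along the whole range.

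The 12 tallest members lay upstream of 11 genes. The tallest, 71 reads against a background of 7.51, lay 1275 bp upstream of PRMT6, a protein arginine methyltransferase (chr1:107055206-107055487). GALNTL6, of the family that starts O-linked glycosylation, had a member of 64 reads against 3.21, 113 bp upstream of its start. No peak lay at an annotated transcript end of GALNTL6, so this member was seen without the gene's own 3′ end. The same held for 154 of the 1605 genes with a member. RefSeq places the GALNTL6 member inside LOC441052, a long noncoding RNA on the opposite strand. GOLIM4, a Golgi membrane protein, had 61 reads at 424 bp. BEND3, a BEN domain repressor of chromatin, had 59 reads at 789 bp, in a peak 660 bp wide without any of the 12 PAS hexamers in the last 100 bases on either strand. PPM1D, the phosphatase WIP1 that dampens p53 signalling, also had 59 reads, at 1062 bp. SCCPDH had 54 reads at 1293 bp, also without a peak at its annotated transcript ends. KPNA2, the nuclear import receptor importin alpha, had 52 reads at 374 bp, and CCND1, which encodes cyclin D1, had 52 reads at 669 bp in a peak of 884 bp. MCUR1, a regulator of mitochondrial calcium uptake, had 51 reads at 573 bp, inside LOC107986571, also a long noncoding RNA on the opposite strand. MEGF9, a transmembrane protein with EGF-like domains, had 51 reads at 1461 bp. These peaks were wide: the 15 members with at least 50 reads had a median width of 363 bp, against 121 bp for all members.

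DDX1, a DEAD box RNA helicase gene next to MYCN, carried the other 2 of the 12 tallest and had 4 members in all. They had 62 reads at 1386 bp, 58 reads at 2872 bp, 50 reads at 542 bp and 44 reads at 169 bp. Their local background was 11.8, 8.04, 13.0 and 13.2 reads, so the fold enrichment was 4.94, 6.53, 3.65 and 3.18. Of these folds, 3 were below the median of 5.81 over all members, so the high reads went with a high background. RefSeq places all 4 inside LOC124905975, a long noncoding RNA on the opposite strand. The copy number of the DDX1 region was not measured here and its part in these heights was not tested.

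Of 8524 coding genes with at least 1 base open to the rule, 1605 (18.8%, 18.01 to 19.67) had a member. A single member was found at 1105 of them, 2 members at 366, 3 at 106, 4 at 24 and 5 at 4 genes. ZNF462, a zinc finger gene, had members of 30, 30, 28, 27 and 27 reads, a nearly level run over backgrounds of 7.13 to 7.56. All 5 lie within ZNF462 as RefSeq draws it, so this run may be called upstream only under GENCODE. RCOR3, of the CoREST corepressor family, had 33, 26, 26, 25 and 23 reads. Its member at 472 bp had AATAAA starting 13 bases before the antisense edge, while that at 2790 bp had 24 A in 25 bases after the antisense edge. Of the 24 genes with 4 members, DDX1 and GOLIM4 had the most reads summed over members, and they are shown with the former. RANBP2, a nuclear pore protein, had members of 23, 22, 21, 11 and 8 reads, and POP4, a subunit of RNase P, had members of 24, 15, 11, 9 and 7. GOLIM4 had 28, 24 and 19 reads beside its member of 61. The heights thus ran level at ZNF462 and RCOR3 and were more uneven at RANBP2, POP4 and GOLIM4.

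**Figure D3:**
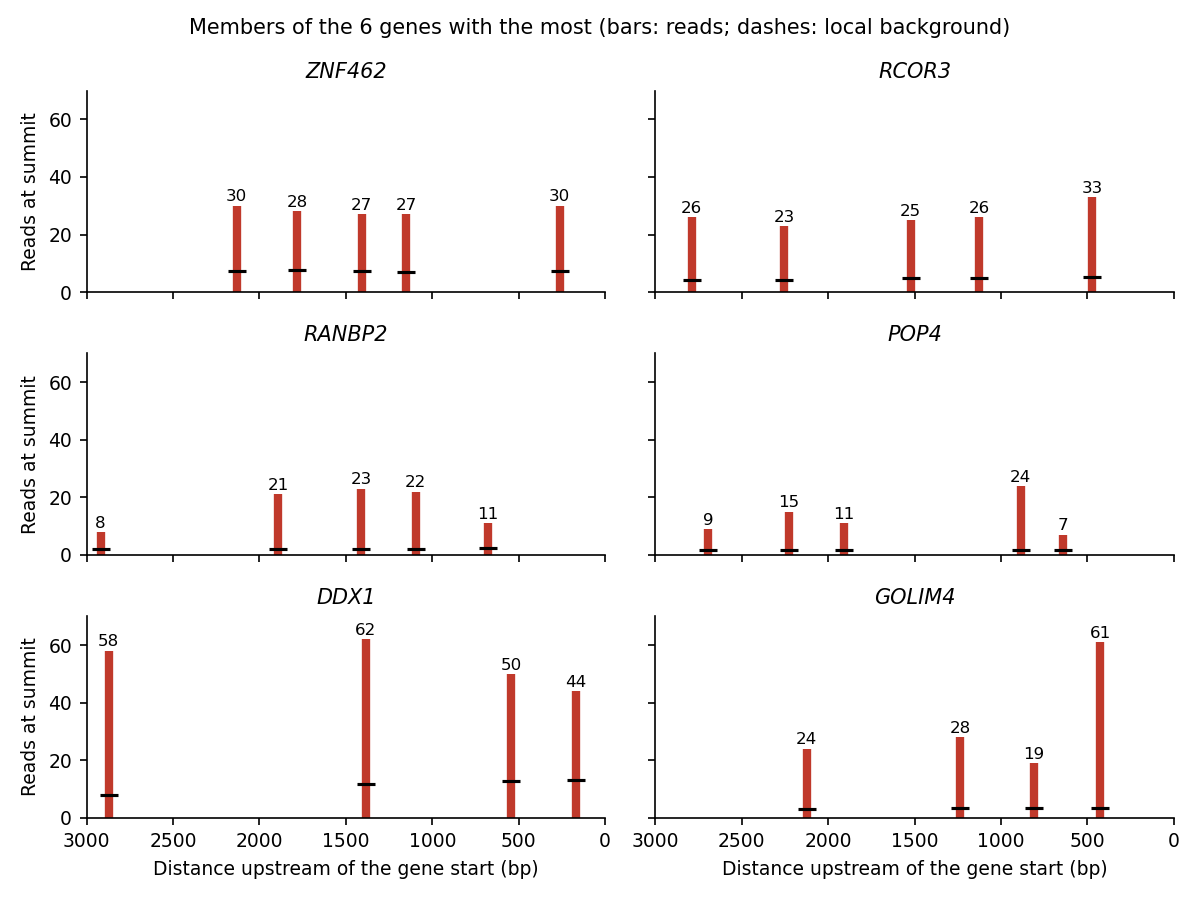
Members of the 4 genes with 5 members and of the 2 with the most summed reads among the 24 genes with 4, by distance upstream of the gene start in bp (horizontal axis, with the start at the right) and reads at the summit (vertical axis; bars with values), with local background as black dashes. The 4 members of DDX1 have 44 to 62 reads over backgrounds of 8.04 to 13.2, whereas those of POP4 have 7 to 24 reads.

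The next question was on which strand these transcripts end. At least 1 of the 12 PAS hexamers that the study lists was present in the 100 bases up to the antisense edge at 1174 members, 51.7% (95% Wilson interval 49.6 to 53.7). On the sense strand this was so at 656 members, 28.9% (27.1 to 30.8). Transcript-end peaks, where the strand is known, had 77.4% on the gene's strand and 52.3% on the opposite strand. A hexamer anywhere in the 100 bases was thus frequent on both strands there. Intronic peaks within 2 kb of a coding start had 48.8% on the gene's strand and 34.5% on the opposite strand. The sequence these members lie in was even between the strands. Of 183550 tiles of 100 bases that cover all sequence open to the rule, 36.3% (36.0 to 36.5) held a hexamer on the antisense strand and 36.2% (36.0 to 36.4) on the sense strand. In genes with a member, tiles away from members held one at 33.2% (32.7 to 33.7) and 34.3% (33.8 to 34.8). Of the members, 764 (33.6%) had a hexamer on the antisense strand only, 246 (10.8%) on the sense strand only, 410 (18.1%) on both and 851 (37.5%) on neither.

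AATAAA gave the widest gap of the 12 hexamers. It was found before the antisense edge of 621 members (27.3%) and before the sense edge of 166 (7.31%), a ratio of 3.74, against 7.20% and 7.42% of the tiles. In genes with a member, tiles away from members gave 5.80% on the antisense and 6.89% on the sense strand. ACTAAA had the next ratio, 2.18, with 3.74% against 1.72%, followed by AAGAAA with 1.98 (11.4% against 5.77%) and ATTAAA with 1.95 (8.50% against 4.36%). GATAAA had the lowest ratio, 1.33. All 12 were thus more frequent on the antisense strand, and the hexamers overlap in letters, so the ratios do not add up. Over the whole length of the peaks, AATAAA occurred 3.52 times per kb on the antisense strand and 0.814 times per kb on the sense strand.

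Position sharpened the difference. AATAAA started 10 to 40 bases before the antisense edge at 455 members, 20.04% (18.4 to 21.7), and before the sense edge at 73, 3.21% (2.56 to 4.02). The tiles gave 2.56% on the antisense and 2.63% on the sense strand. Transcript-end peaks, where the strand is known, show how far this measure separates strands. AATAAA stood in the window at 38.7% (38.1 to 39.2) of 28755 such peaks on the gene's strand and at 4.53% (4.30 to 4.78) on the opposite strand. Intronic peaks within 2 kb of a coding start had 14.5% (13.4 to 15.7) on the gene's strand and 4.003% (3.40 to 4.70) on the opposite strand. Peaks past a 3′ end were close to members on the signal strand, with 19.1% (18.3 to 19.9) on the gene's strand, but had 8.92% (8.35 to 9.52) on the opposite strand. For any hexamer they had 50.8% and 39.9%. Other intergenic peaks had AATAAA in the window at 11.4% on the plus and 10.4% on the minus strand. By this measure 441 members (19.4%) pointed to an antisense end only, 59 (2.60%) to a sense end only, 14 to both and 1757 (77.4%) to neither, so most members carried no strand call.

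**Figure D4:**
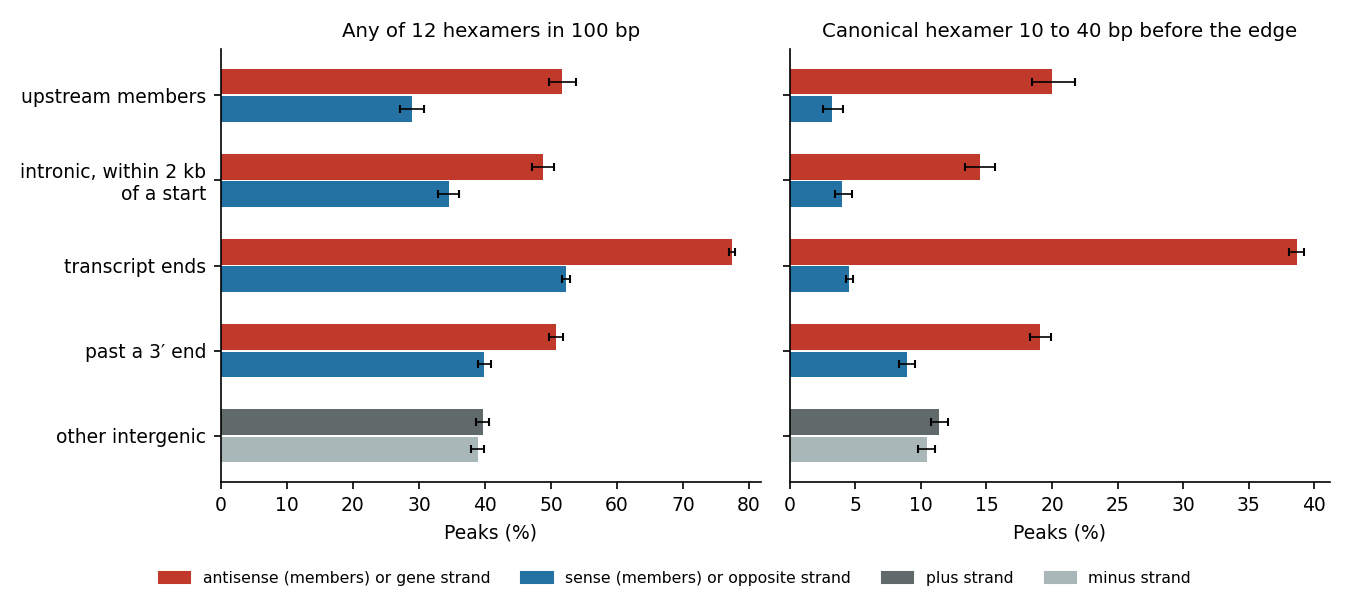
Percentage of peaks (horizontal axes) with any of the 12 hexamers in 100 bp (left) and with the canonical hexamer 10 to 40 bp before the edge (right), by peak group and strand, with 95% Wilson intervals. Members show 51.7% on the antisense against 28.9% on the sense strand at left and 20.04% against 3.21% at right.

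The most frequent start of AATAAA was 19 bases before the antisense edge of members (43 members, 1.89%) and 23 bases before the edge at transcript ends (967 peaks, 3.36%). On the sense strand of members no base exceeded 9 members (0.396%). The antisense profile was broader than that of transcript ends and stayed at or above 0.925% from 28 to 7 bases before the edge.

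**Figure D5:**
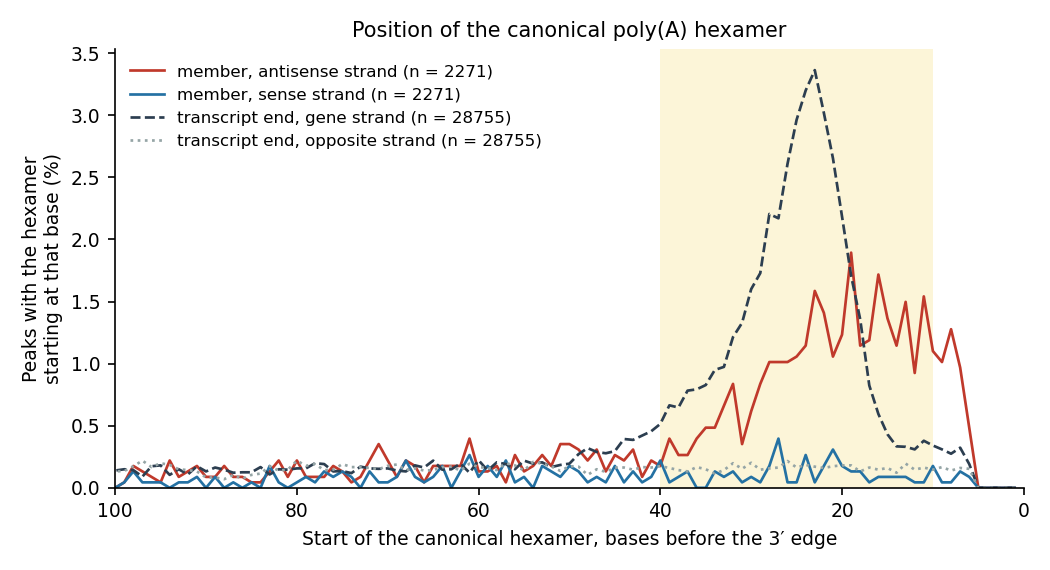
Percentage of peaks with the canonical hexamer starting at each base (vertical axis) against bases before the 3′ edge (horizontal axis), for both strands of members and of transcript-end peaks, with the 10 to 40 bp window shaded. The antisense strand of members peaks at 1.89% at 19 bases and transcript ends at 3.36% at 23 bases, while the sense strand of members stays at or below 0.396%.

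The antisense share with AATAAA in the window differed little with distance from the gene. It was 17.8% (13.9 to 22.6) of the 297 members in the nearest 500 bp, 20.2% (16.7 to 24.1) of the 451 between 1501 and 2000 bp and 18.5% (13.6 to 24.7) of the 189 between 2501 and 3000 bp. The sense share was 5.39% (3.34 to 8.57) in the nearest 500 bp and 2.65% (1.14 to 6.04) in the farthest. For any hexamer the sense share fell from 37.4% (32.1 to 43.0) to 21.7% (16.4 to 28.1) over the same span, whereas the antisense share was 52.5% (46.9 to 58.1) and 50.8% (43.7 to 57.8). The share with a hexamer before the antisense edge was 41.8% (38.1 to 45.6) of the 658 members with 3 to 9 reads and 69.4% (59.7 to 77.6) of the 98 with 30 to 49 reads. The sense share was 27.5% (24.2 to 31.04) and 28.6% (20.6 to 38.2) in these groups. Among members at least 110 and under 150 bp wide, AATAAA in the antisense window reached 34.0% (30.1 to 38.1), against 13.3% (10.5 to 16.8) from 150 to under 250 bp. Only the outer edge was searched, so a signal farther inside a wide peak was not counted.

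Of the 455 members with AATAAA in the antisense window, 199 (43.7%, 39.2 to 48.3) had no earlier AATAAA between the gene start and the window on that strand. The others had at least 1 AATAAA in that stretch of the genome, and the highest number was 10. Whether an RNA crossed these was not measured. Motifs of a 5′ splice site were counted on the antisense strand. They were GGTGAG and GGTAAG, as well as GTGAGT, which can overlap the former. They were absent from this stretch at 228 members (50.1%, 45.5 to 54.7), and their density in it was 0.540 per kb. Over the 3 kb upstream of all 8524 eligible genes, the antisense strand had 0.691 such motifs per kb and 0.897 AATAAA per kb. The 3 kb downstream of the same starts had 1.02 motifs and 0.622 AATAAA per kb on the sense strand. Genes with a member had 0.621 motifs and 1.04 AATAAA per kb upstream, and those without had 0.707 and 0.863. No test was made of these differences, which include the members' own hexamers.

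Members lay before A-rich sequence more often on the antisense than on the sense strand. At least 22 A in 25 bases within 50 bp after the edge, the study's own sign of internal priming, occurred at 121 members (5.33%, 4.48 to 6.33) on the antisense strand and 20 (0.881%, 0.571 to 1.36) on the sense strand. The tiles gave 0.259% and 0.256%. With at least 18 A, the shares were 20.9% (19.3 to 22.6) and 3.26% (2.60 to 4.07), against 1.29% and 1.35% of tiles. Of the 20 bases after the edge, 49.5% ± 25.5 (SD over members) were A on the antisense strand and 27.5% ± 16.8 on the sense strand. At transcript ends the gene's strand had 36.1% ± 23.9. At least 22 A followed 1.94% of transcript-end peaks on the gene's strand, and at least 18 A followed 9.12%, both below the antisense strand of members. Early intronic peaks had at least 22 A at 2.70% on the gene's strand. Other intergenic peaks had levels near those of the antisense strand of members. At least 22 A followed 5.63% of other intergenic peaks on the plus and 5.75% on the minus strand, and at least 18 A followed 21.6% and 21.2%. Peaks past a 3′ end had at least 18 A at 18.8% on the gene's strand and 9.80% on the opposite strand, and early intronic peaks had it at 13.8% and 2.58%. An A stretch of 22 without any hexamer, the combination that the study filtered out, was present on the antisense strand of 101 members (4.45%) and on the sense strand of 17 (0.749%). Such peaks are thus still in the list by the criteria used here. The list has no strand, so which members the study kept after its filter is not known. Hexamers and A stretches thus lay on the same strand but mostly at different members: 101 of the 121 members with 22 A on the antisense strand had no hexamer there. Of all members, 51.7% had a hexamer on that strand. Hexamers and A stretches also went opposite ways with height. At least 18 A after the antisense edge were found at 26.7% (23.5 to 30.3) of the 658 members with 3 to 9 reads and at 8.16% (4.19 to 15.3) of the 98 with 30 to 49 reads. The part of A-rich sequence in the number of members was not tested.

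The letters CTCCNTCTC were searched in the same 100 bases, since Alu repeats end in A-rich sequence. They were present at 193 members (8.50%, 7.42 to 9.72) on the antisense strand and 41 (1.81%, 1.33 to 2.44) on the sense strand. Over all 199600 peaks on the chromosomes they were present at 3.71% on the plus and 3.57% on the minus strand. The tiles gave 1.32% on the antisense and 1.31% on the sense strand. Other groups with a known gene strand were uneven too. Early intronic peaks had the letters at 5.25% on the gene's strand and 1.79% on the opposite strand, and transcript-end peaks at 2.31% and 0.62%. Of the 475 members with at least 18 A after the antisense edge, 18.3% (15.1 to 22.04) had the letters on that strand. The difference between strands was also present in members where neither feature was found. Exact letters miss altered Alu ends, so these members may still hold Alu sequence, and its part in the difference was not tested. Among the 1597 members with neither CTCCNTCTC nor 18 A on either strand, 61.2% (58.8 to 63.5) had a hexamer on the antisense and 36.5% (34.2 to 38.9) on the sense strand. AATAAA stood in the antisense window of 23.9% (21.9 to 26.1) of them and in the sense window of 4.32% (3.43 to 5.43). Reads with up to 20 places in the genome were kept by the authors, so sequence copies were counted as well. The 75 bases around the summit had another exact copy on the chromosomes at 65 members (2.86%, 2.25 to 3.63), at 9.52% (8.93 to 10.1) of peaks past a 3′ end and at 17.4% (16.6 to 18.2) of other intergenic peaks.

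The rule called members intergenic by GENCODE, but 394 (17.3%) lay inside a gene of RefSeq. A RefSeq long noncoding RNA on the antisense strand covered 163 members, of which 58.9% had a hexamer on the antisense and 28.8% on the sense strand. A further 50 lay in long noncoding RNAs whose strand was not matched, and 30 of them had an antisense hexamer. In the 18 members inside a long noncoding RNA on the sense strand, 4 had a hexamer on the antisense and 7 on the sense strand. The coding gene itself reached over 98 members in RefSeq, where 43.9% had a hexamer on the antisense and 31.6% on the sense strand. The 1877 members inside no RefSeq gene had 51.4% and 28.3%.

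Genes with a member differed from other eligible genes in promoter sequence and in their own 3′ ends. A peak at an annotated transcript end was found at 90.4% (88.9 to 91.8) of the 1605 genes with a member and at 61.5% (60.3 to 62.6) of the 6919 without. The share of genes with a member was 5.46% (4.68 to 6.36) of 2820 genes without a transcript-end peak, 18.4% (16.4 to 20.6) of those whose tallest such peak had 3 to 14 reads, 26.6% (24.9 to 28.3) at 15 to 29 reads, 28.0% (25.8 to 30.3) at 30 to 49 reads and 31.2% (26.9 to 35.9) at 50 reads or more. The median height of those peaks was nonetheless close, 25 reads in genes with a member and 23 in those without. CpG islands mark promoters that often fire in both directions. In the 1000 bp around the start, the ratio of observed to expected CpG had a median of 0.791 in genes with a member and 0.679 in those without. A member was found at 4.55% (3.69 to 5.59) of 1848 genes with a ratio under 0.3 and at 29.9% (27.2 to 32.8) of 1027 genes with a ratio of 0.9 or more. Height at the 3′ end, CpG content and the length of open sequence differ together between genes, and their shares in this pattern were not separated. With all 3000 upstream bases open to the rule, 1355 of 5356 genes (25.3%, 24.2 to 26.5) had a member.

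Among the gene lists, genes of nuclear RNA decay and 3′-end processing had members at 10 of 29 eligible genes (34.5%, 19.9 to 52.7), beside 18.8% of all eligible genes. SCAF4 and SCAF8, which bind the tail of RNA polymerase II and hold back early polyadenylation, had members of 47 reads and of 26 and 23 reads. The member of SCAF4 was 952 bp wide and lay 1179 bp upstream. INTS4 and INTS3, subunits of Integrator, which cleaves RNA near promoters, had 23, 16 and 13 reads and 21 and 19 reads. INTS4 had no hexamer at any of its 3 members and 20 A in 25 bases after the antisense edge of the farthest. WDR33, the CPSF subunit that binds AAUAAA, had members of 17 and 9 reads inside the antisense LOC124907885. The interval of the list covers counting error only. Of all eligible genes, 5704 had a transcript-end peak, and 1451 of these had a member. The median height of that peak was 38 reads in the list. Of all eligible genes with a peak of 30 to 49 reads there, 28.0% (25.8 to 30.3) had a member. The list was chosen by hand with earlier results known, all 29 of its eligible genes had a transcript-end peak, against 66.9% of all eligible genes, and no test of the list was made.

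DNA damage response genes had members at 8 of 53 eligible genes (15.1%, 7.85 to 27.1), beside 18.8% of all eligible genes. They had less sequence open to the rule, a median of 601 bases against 3000 for all eligible genes. Per Mb of open bases they had 167.2 members (89.0 to 285.8), against 122.7 for all genes, so neither measure set them apart. XRCC2, which acts in homologous recombination, had 28 reads at 237 bp. MGMT, which removes alkyl groups from guanine, had 18 and 13 reads. RFC2, a subunit of the clamp loader, had 13, 13, 11 and 8 reads, and that at 2376 bp had AATAAA 23 bases before the antisense edge. RAD18, a ubiquitin ligase for PCNA, had 11 reads over a background of 0.3372. Among neuroblastoma transcription factors, 1 of 6 eligible genes had a member, LMO1, with 5 reads at 642 bp. Among replication-dependent histone genes, 1 of 7 had one, H4C13, with 11 reads at 2977 bp and 25 A in a row of 25 after the antisense edge. The rule left many genes of these lists out: 53 of 148 in the DNA damage response list had sequence open to it.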

How the data were processed

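IMR-32 samples in 3 groups of 2 gave 6 poly(A) 3′-seq libraries. The authors mapped reads with STAR 2.5.1b to GRCh38, keeping reads with up to 20 placements, and called peaks with MACS2 2.1.1 on merged reads extended to 100 bp. The merged samples are not listed and are taken to be these 6, though Kelly and knockdown libraries of the study may be among them. Strand-specific coverage tracks named in the labels were not analysed here. The deposited list gives a fold enrichment (a ratio of pileup to local background), −log10 p-values and −log10 q-values at the summit. Its deposited score, the scaled −log10 q-value, was not used. MACS2 by default counts reads of equal position and strand once, which compresses heights.

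Reads at the summit and the local background were solved here from fold and −log10 p, with a largest misfit of 0.000172. On simulated data the pileup was recovered at 99.99% of 17462 peaks, and planted features at 100% of 400 windows. Annotation was GENCODE 44 (the study used release 27) and RefSeq, with python 3.11.15, pandas 2.3.3, scipy 1.17.1 and pysam 0.24.0. Of 162 DNA damage response entries from the study, 148 matched a gene. Shares have Wilson intervals and densities exact Poisson intervals, at 95%. Alternatives were cutoffs of 5 and 20 on −log10 q, merging within 200 bp, other exclusion distances, gene sets and starts, and other sequence criteria.

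Named were the 12 tallest members, the 6 genes with the most members (ties by summed reads), up to 5 genes with the tallest member in each list, the 6 tallest antisense-only and 4 tallest sense-only members with AATAAA in the window, and the tallest with an A stretch on each strand. Members and lists were chosen with earlier results of these data known. The list has no value for a library, so no test between groups was made. Some of these genes and sequences are not reported here.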

Additional observations from a re-analysis of the deposited data

Results flagged for a closer look

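The list also held 423 peaks on sequences outside the 24 chromosomes, which entered none of the comparisons above and were noticed as signal in unused data. Unplaced sequences and the mitochondrial genome have no eligible upstream sequence here, and these peaks are given as a count.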

How the results depend on the processing

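The number of members was 1643 with −log10 q of at least 5 and 106 with at least 20, and between 1522 and 2871 under the alternatives of place. Of 50 alternative values, 23 stayed within the interval or within 1.5 times the reported one and 27 moved. With −log10 q of at least 5, density was 88.8 per Mb, the median 15 reads, hexamers stood at 55.6% on the antisense strand, AATAAA in the antisense window at 22.9% and A stretches at 0.487% on the sense strand. With at least 20, density was 5.73 per Mb, the median 34 reads, hexamers 72.6% antisense and 32.1% sense, AATAAA in the window 25.5% antisense and 0% sense, A stretches 0% on both strands (0 of 106 allows up to 2.83% by a floor of 3 counts and 3.50% by the Wilson interval), and 44.6% of genes with such a member had a transcript-end peak that passed the same cutoff. Merging peaks closer than 200 bp gave 115.5 per Mb, and starts of canonical transcripts gave 132.8 per Mb. Counting AATAAA and ATTAAA only gave 33.0% antisense and 10.6% sense. Leaving out A stretches gave 54.1% with an antisense hexamer, and a minimum of 18 A gave 20.9% and 3.26%. A narrower window at transcript ends, 100 bp to each side, gave 85.4% of genes with such a peak. Chosen after seeing the data, leaving out Alu-end letters and 18 A gave 61.2% and 36.5% for hexamers and 23.9% and 4.32% for AATAAA. The antisense share exceeded the sense share in 8 of 8 settings for hexamers, 5 of 5 for AATAAA and 4 of 5 for A stretches, where the exception had none on either strand. The causes were not tested. No paired analysis was possible because the peak list analysed here was called on merged reads, and for that reason no library was left out. Counting error limits the counts of few members, such as the 59 with AATAAA on the sense strand only.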
